A study of Caenorhabditis elegans with 2 samples.

Results

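The genes for small secreted peptides of Caenorhabditis elegans were examined for binding of the tagged F57A8.1 protein. Every protein-coding gene whose Ensembl name begins with flp-, nlp- or ins- was taken, which gave 140 of 19973 protein-coding genes: 31 flp, 71 nlp and 38 ins genes. The members were chosen by these names. Each gene was described by the summit, the point of highest enrichment within a peak, that lay closest to its annotated 5′ end, and a summit counted as near when it was within 2000 bp. Distances run along the gene's own strand, so a negative one lies upstream.

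The peaks come from chromatin immunoprecipitation followed by sequencing (ChIP-seq) on whole worms of strain OP757. This strain is mutant for unc-119 (allele tm4063) and carries the transgene F57A8.1::TY1::EGFP::3xFLAG together with a working unc-119 copy. Both samples were young adults of both sexes, 65 hours old, from larvae synchronised by bleaching and starvation in the first larval stage. Chromatin was sonicated to 200 to 800 bp, and anti-GFP antibody was used for the precipitation. The 2 biological replicates form 1 group, and no second strain, stage or treatment was analysed here, so all comparisons are between genes or between replicates. The tagged protein came from 1 transgenic line in addition to the gene's own copy, and chromatin of all tissues was mixed, so binding in a few neurons and weak binding in many cells cannot be told apart.

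Neuropeptide genes encode precursor proteins that are cut into short active peptides, stored in dense core vesicles and released from neurons, intestine or epidermis. The flp genes encode FMRFamide-like peptides, which act mainly through G protein-coupled receptors on movement, feeding, egg laying and sleep-like states. The nlp genes are a mixed group of neuropeptide-like proteins, some of which are antimicrobial peptides of the epidermis. The ins genes encode insulin-like peptides that activate or block DAF-2, the single insulin receptor of the worm, in the control of larval arrest, growth, lifespan and learning.

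Windows of 101 bases around 10 of the better ranked summits near peptide genes are given here, because they show how different the underlying sequences were. The first 4 are at summits of the authors' thresholded list, at nlp-76 (chrX:12665225-12665325), ins-13 (chrII:5543658-5543758), ins-39 (chrX:1345020-1345120) and ins-17 (chrIII:4476340-4476440). The others are at weaker summits that were found in the pooled list and in both replicates, at ins-4 and its neighbour ins-5 (chrII:5996437-5996537), flp-3 (chrX:10092265-10092365), flp-23 (chrIII:8650431-8650531), nlp-18 (chrII:11030471-11030571), nlp-7 (chrX:8592897-8592997) and nlp-32 (chrIII:486263-486363). Windows at nlp-4, ins-30 and nlp-40, which rank among the best as well, are not shown. Those shown are the plus strand of WBcel235, written 5′ to 3′ with the summit at the middle base, and capitals mark bases inside an annotated short RNA gene.
nlp-76: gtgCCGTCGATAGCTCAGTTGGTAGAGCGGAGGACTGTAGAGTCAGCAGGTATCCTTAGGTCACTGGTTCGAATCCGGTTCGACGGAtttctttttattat
ins-13: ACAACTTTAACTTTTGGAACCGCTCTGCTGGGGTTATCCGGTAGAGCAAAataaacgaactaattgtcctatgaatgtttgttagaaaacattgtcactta
ins-39: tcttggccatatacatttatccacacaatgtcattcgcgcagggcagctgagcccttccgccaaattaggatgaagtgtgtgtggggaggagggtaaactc
ins-17: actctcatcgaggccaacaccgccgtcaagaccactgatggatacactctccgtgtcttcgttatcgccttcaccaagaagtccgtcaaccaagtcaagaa
ins-4: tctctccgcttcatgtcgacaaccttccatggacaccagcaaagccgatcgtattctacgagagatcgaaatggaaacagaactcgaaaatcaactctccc
flp-3: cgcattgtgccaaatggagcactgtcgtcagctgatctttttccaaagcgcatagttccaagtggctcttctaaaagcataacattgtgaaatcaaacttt
flp-23: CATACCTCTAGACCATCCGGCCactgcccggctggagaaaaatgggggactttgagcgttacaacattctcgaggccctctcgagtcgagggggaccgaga
nlp-18: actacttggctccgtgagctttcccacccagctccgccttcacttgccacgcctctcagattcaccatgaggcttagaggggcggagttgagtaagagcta
nlp-7: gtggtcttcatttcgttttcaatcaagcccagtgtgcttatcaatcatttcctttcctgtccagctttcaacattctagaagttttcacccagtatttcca
nlp-32: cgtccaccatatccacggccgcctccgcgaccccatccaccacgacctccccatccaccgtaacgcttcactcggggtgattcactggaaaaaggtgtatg
The nlp-76 window holds a whole tRNA gene of 84 bases, and the first 50 bases of the ins-13 window are the end of a spliced-leader RNA gene. The ins-39 window overlaps neither a short RNA gene nor coding sequence, and the ins-17 window is coding sequence throughout, of another gene. The ins-4 window is coding throughout as well, flp-3 has 70 coding bases and nlp-32 has 84, while nlp-18 and nlp-7 have none. G+C content ranged among these windows from 36.6% at ins-13 to 60.4% at nlp-32.

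Strong, reproducible peaks were found near 5 peptide genes, nlp-4, ins-39, nlp-76, ins-13 and ins-17, and near no flp gene. The thresholded list holds the 295 peaks that passed the authors' limit on the irreproducible discovery rate, which compares peak ranks between lists. Of the 140 members 5 had one of these summits within 2000 bp (3.57%, 95% Wilson interval 1.53 to 8.09), and the share over all protein-coding genes was 1.59%, inside that interval. The families had 0 of 31 flp (interval 0.0 to 11.0%), 2 of 71 nlp (0.776 to 9.7%) and 3 of 38 ins genes (2.72 to 20.8%). The ins interval, which rests on 3 genes, lies above the share over all genes, and those of flp and nlp include it. The difference between families was not tested. Depth is unknown for these files, and all intervals given here cover counting error only.

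The peak near nlp-4 had the highest signal of any within the limit of a peptide gene. Its summit, on chromosome I at 10517209, lay 846 bp downstream of the nlp-4 5′ end and beyond the end of the gene. Signal is the authors' enrichment value of a peak, and rank 1 is the highest signal of a list. The nlp-4 peak had a signal of 149 in the pooled list, 62.9 in replicate 1 and 97.3 in replicate 2. The scales of the lists differ, but the ranks of 38, 62 and 36 were all near the top of 30000 peaks. The snoRNA gene F59C6.15 starts 59 bp from the summit, and the closest protein-coding 5′ end, 781 bp away, was that of F59C6.18.

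The ins-39 peak was the one of the 5 whose summit lay between genes, with ins-39 as the nearest protein-coding 5′ end and no short RNA gene within 250 bp. Its summit on chromosome X at 1345070 was 649 bp upstream. The signal was 144 in the pooled list, 52.2 in replicate 1 and 88.9 in replicate 2, at ranks 47, 137 and 48. The replicates' summits lay 29 and 1 bp from the pooled one.

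At nlp-76 the summit, on chromosome X at 12665275, lay 1372 bp upstream of the 5′ end, inside the tRNA-Tyr gene C02B4.t2 and in an intron of the nuclear hormone receptor gene nhr-17. The signal was 135 in the pooled list, 55.1 in replicate 1 and 83.9 in replicate 2, at ranks 64, 107 and 54. At ins-13 the summit, on chromosome II at 5543708, lay 1156 bp downstream of the 5′ end, past the gene, and 1 bp from sls-2.2, a gene for the spliced leader RNA that is joined to the start of many worm messenger RNAs. The signal there was 134 in the pooled list, 61.2 in replicate 1 and 73.3 in replicate 2, at ranks 66, 67 and 95. Short RNA genes thus lay within 250 bp of 3 of these 5 thresholded summits. The same share was not counted over the whole thresholded list. The count therefore describes these summits only and does not set peptide genes apart from other genes.

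The fifth gene, ins-17, known as an antagonist of DAF-2 signalling, had the weakest of these peaks and the least even one. Its summit, on chromosome III at 4476390, was 1182 bp downstream, in a coding exon of rps-1. This gene encodes a ribosomal protein, and its own 5′ end was nearer, at 472 bp. The signal was 87.8 in the pooled list, 46.4 in replicate 1 and 40.5 in replicate 2. The ranks were 269, 210 and 1221, so the peak was among the 295 highest of the pooled list and of replicate 1 but not of replicate 2. The other 4 peaks were among the 295 highest of each of the 3 lists.

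**Figure D1:**
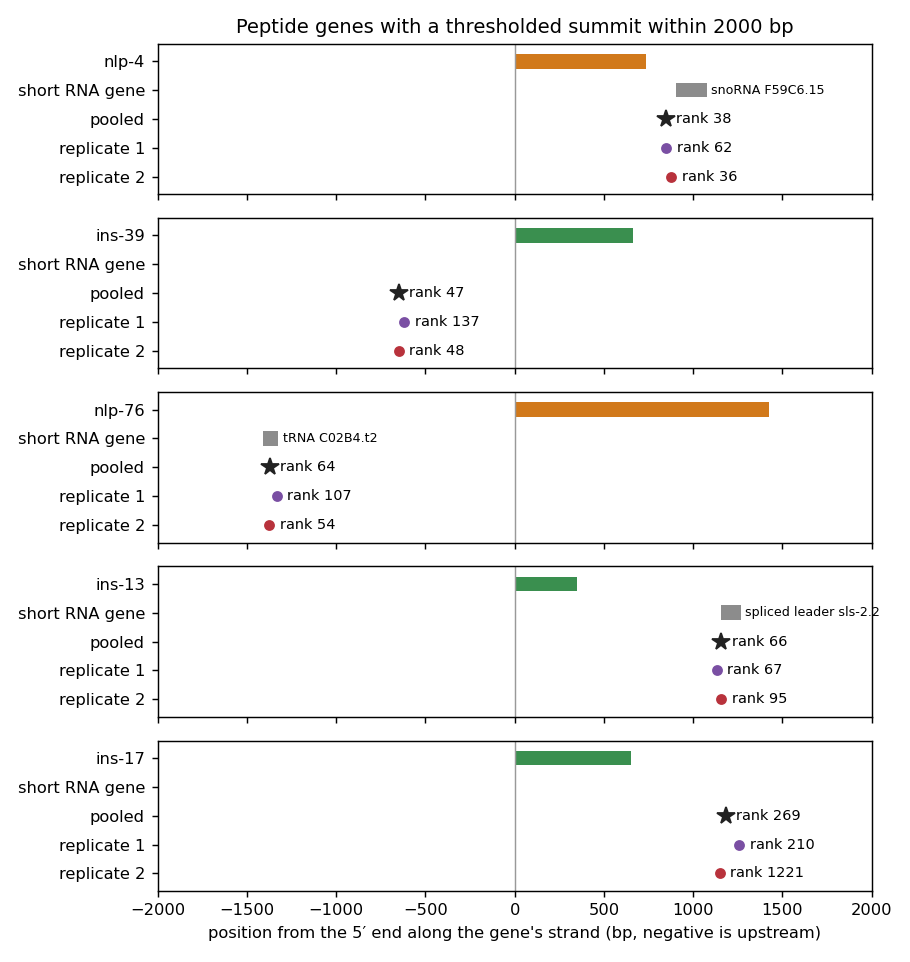
The 5 peptide genes with a thresholded summit within 2000 bp, drawn along each gene's strand from its 5′ end in bp (coloured bar, the gene; grey bar, a short RNA gene within 250 bp of the summit; star, the pooled summit; circles, the matching summit of each replicate), with ranks by signal beside the marks. The summits of nlp-4 and ins-13 lie past the gene's end beside a short RNA gene, that of nlp-76 lies in a tRNA gene, and ins-39 has an upstream summit with no short RNA gene beside it.

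For 4 of these 5 genes the thresholded summit was not the nearest one. A weaker pooled summit lay closer, at 9 bp for ins-39 (rank 7740), 63 bp for nlp-76 (rank 20230), -327 bp for ins-13 (rank 14503) and -593 bp for nlp-4 (rank 29725). The nearest pooled summit was itself a thresholded one for ins-17 only, or 0.714% of members, against 0.866% of all protein-coding genes.

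By the wider measure of a summit of any strength, the peptide genes were close to other genes. The pooled list had a summit within 2000 bp of 91 of the 140 members (65.0%, interval 56.8 to 72.4), and of 69.6% of all protein-coding genes. Each list holds 30000 peaks, so a nearby summit is common for any gene, and a summit of low rank need not stand for binding. Within 500 bp the shares were 35.0% of members (49 genes) and 31.8% of all genes. Replicate 1 had a summit within 2000 bp of 105 members (interval 67.2 to 81.4%), against 71.8% of all genes, and replicate 2 of 97 members (69.3%), against 70.2%. Both replicates had one for 81 members (57.9%), against 57.2% of all genes. No list had one for 16 members (11.4%), against 13.8% of all genes. The interval of each of these shares, taken over all members, includes the share over all genes.

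**Figure D2:**
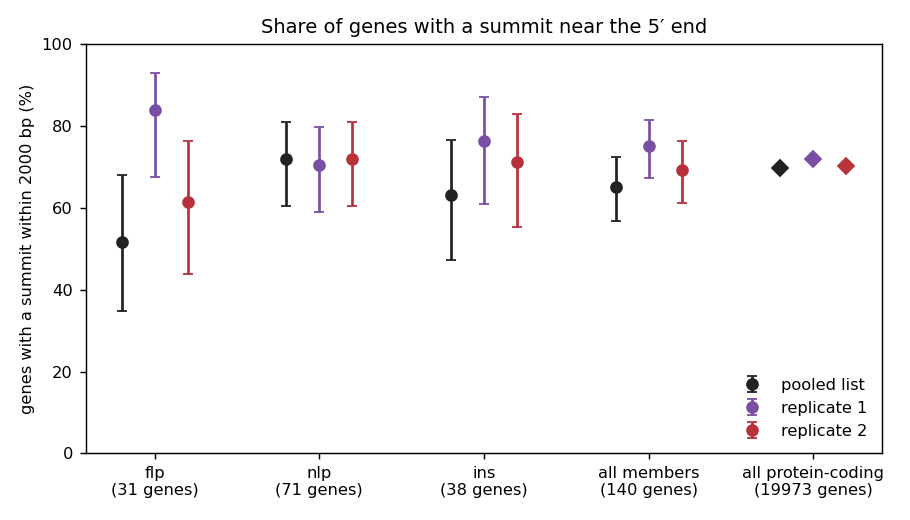
Share of genes, in percent, with a summit within 2000 bp of the 5′ end, by family, for all 140 members and for all protein-coding genes (diamonds), in the pooled list and each replicate; bars are 95% Wilson intervals. The pooled share of the flp genes, 51.6%, and their replicate 1 share, 83.9%, lie on opposite sides of the shares over all genes, while the nlp shares stay between 70.4% and 71.8%.

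The flp genes were the family whose count depended most on the list. The pooled list had a summit near 16 of 31 flp genes (51.6%, interval 34.8 to 68.0), replicate 1 near 26 (83.9%, 67.4 to 92.9) and replicate 2 near 19 (61.3%, 43.8 to 76.3). The pooled interval lies below the 69.6% of all genes, and those of both replicates include the shares over all genes in their lists. Replicate 1 had summits near 10 flp genes that had none in the pooled list: flp-4, flp-5, flp-6, flp-10, flp-11, flp-12, flp-17, flp-20, flp-22 and flp-28. Their ranks in replicate 1 were between 10793 and 26299, and replicate 2 had one near 2 of them. For 5 of the 10 the pooled summit lay just outside the limit, between 2092 and 2337 bp. With a limit of 2500 bp, chosen after these values were seen, the pooled list had a summit near 21 flp genes (67.7%), and near 75.4% of all genes. The pooled counts of the other families were 51 of 71 nlp genes (71.8%, 60.5 to 81.0) and 24 of 38 ins genes (63.2%, 47.3 to 76.6).

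Around the limit itself, the members just inside were nlp-5 at 1836 bp, nlp-15 at 1872 bp and nlp-39 at 1955 bp. Those just outside were nlp-6 at 2066 bp, flp-10 at 2092 bp and flp-20 at 2093 bp. Their pooled ranks overlapped, at 25393, 7054 and 5749 inside and 20081, 7097 and 19307 outside. The farthest member was ins-21, whose nearest pooled summit lay 9641 bp away. The 16 genes with no summit near in any list were flp-9, flp-13, ins-12, ins-21, ins-22, ins-25, nlp-3, nlp-16, nlp-41, nlp-47, nlp-58, nlp-62, nlp-69, nlp-71, nlp-78 and nlp-82. Of these, flp-13 is known for peptides that promote stress-induced sleep.

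Most nearest summits were weak. The deposited −log10 q is higher for a more certain peak. In the pooled list it was 2.03 at the ins-17 summit, 1.21 at nlp-32, 0.995 at ins-30, 0.919 at nlp-18 and 0.61 at flp-3. At flp-1, a summit nearer the middle of the list, it was 0.228. The median pooled rank was 15408 over the 91 members with a near summit and 14987 over the 13892 genes of any kind with one, both close to the middle of the list. By family the median was 18354 for flp, 15463 for nlp and 14000.5 for ins. This order did not hold elsewhere: the ins genes had the lowest-ranking median in replicate 1 (18427) and in replicate 2 (18062). With the summit of highest signal within 2000 bp in place of the nearest, the pooled medians were 8605 for flp, 9612 for nlp and 11518 for ins. A nearest pooled summit ranked 3000 or better was found for 8 members (5.71%), against 7.44% of all genes, and they comprised 1 flp, 3 nlp and 4 ins genes. Asking for 3000 or better in all 3 lists left 0 members by the nearest summit, against 1.29% of all genes. Counting any summit within 2000 bp in place of the nearest, 15 members had one ranked 3000 or better in the pooled list (10.7%), against 13.0% of all genes. The 5 genes with a thresholded summit were the ones with such a rank in all 3 lists (3.57%), against 4.32% of all genes.

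**Figure D3:**
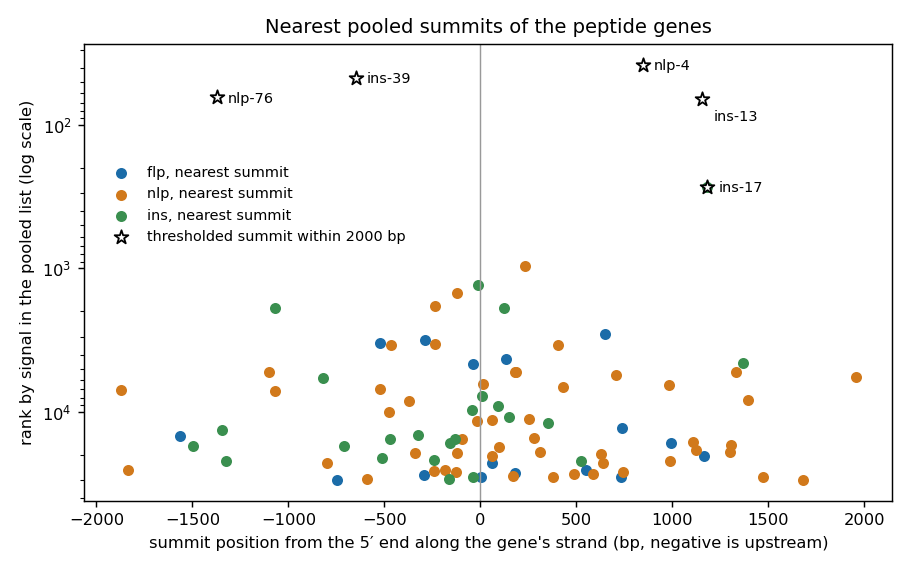
Nearest pooled summit of each of the 91 members with one within 2000 bp, by its position from the 5′ end in bp (x axis) and its rank by signal in the pooled list (y axis, log scale, highest signal at the top), with the 5 thresholded summits as stars. The thresholded summits lie at 649 bp or more from the 5′ end, and the best nearest summit of another gene ranks 964.

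Among the flp genes with a nearest summit within 2000 bp, the best ranked was that of flp-3, with a signal of 53.1 in the pooled list, 26.9 in replicate 1 and 27.1 in replicate 2. It lay 649 bp downstream, in a coding exon of flp-3, at ranks 2894, 3851 and 7707. The next were flp-23 (rank 3175), flp-14 (3334), flp-15 (4297) and flp-32 (4680), all with a summit of each replicate within 100 bp. The 3 after them, flp-1 (13048), flp-27 (14788) and flp-8 (16480), had no such match. The nearest pooled summit of flp-6, just beyond the limit at 2279 bp, ranked 982, with a replicate 1 summit of rank 416 beside it.

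Among the nlp genes nlp-32 led, with a summit 234 bp downstream in its own coding sequence. Its signal was 66.3 in the pooled list, 39.9 in replicate 1 and 28.8 in replicate 2, at ranks 964, 470 and 6053. The summit of nlp-18 lay 124 bp upstream, with a signal of 60.9 in the pooled list, 28.1 in replicate 1 and 28.6 in replicate 2, at ranks 1475, 3167 and 6236. The summit of nlp-40, whose peptide is released from the intestine to time the defecation cycle, lay 236 bp upstream. Its ranks were 1838 in the pooled list, 8466 in replicate 1 and 1262 in replicate 2, so here replicate 2 had the better rank. Further summits were those of nlp-7 (rank 3377, 234 bp upstream), nlp-49 (5254) and nlp-27 (5272). A single summit, ranked 3416, was the nearest of both nlp-22, a gene for a peptide of larval sleep-like quiescence, and nlp-23.

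Among the ins genes ins-17 was followed by ins-30, whose summit was 10 bp upstream of the 5′ end. The ins-30 signal was 62.4 in the pooled list, 18.5 in replicate 1 and 35.7 in replicate 2. The ranks were 1300, 16495 and 2278. The summit thus stood high in the replicate 2 list and in the weaker part of the replicate 1 list. The agonist gene ins-4 and its neighbour ins-5 shared 1 summit, 121 bp downstream of the ins-4 5′ end and 1070 bp upstream of that of ins-5. It had a signal of 58.0 in the pooled list, 29.1 in replicate 1 and 26.8 in replicate 2, at ranks 1898, 2632 and 7930. Next came ins-15 (4611), ins-14 (5869), ins-39 (7740) and ins-26 (9177). The ins-15 summit, 1367 bp downstream, lay in an intron of F41G3.6, whose 5′ end was nearer at 467 bp. The ins-14 summit, 822 bp upstream, lay 68 bp from the 5′ end of F41G3.5.

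Summits of both replicates lay within 100 bp of the nearest pooled summit for 20 of the 91 members (22.0%), against 23.1% of all genes with a pooled summit. They were 5 flp, 9 nlp and 6 ins genes, and they used 18 summits, since ins-4 with ins-5 and nlp-22 with nlp-23 shared theirs. The pooled list is made from the same reads as the replicates, so such a match is not an independent repeat. Of the 20, 4 ranked 3000 or better in replicate 1, 3 did so in replicate 2, and ins-17 alone did so in both. Spearman's rho between the replicates' signals was 0.348 over these 20 members, which share 18 summits, and 0.262 over the 2600 matched summits of all genes. Set against each other without the pooled list, the replicates' own nearest summits lay within 100 bp in 17 of the 81 members that had both, against 20.5% of all genes. They were a median of 731 bp apart for members and 587 bp for all genes, and on the same side of the 5′ end for 47 of 81. The share on the same side was not counted over all genes, so it describes the members only.

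**Figure D4:**
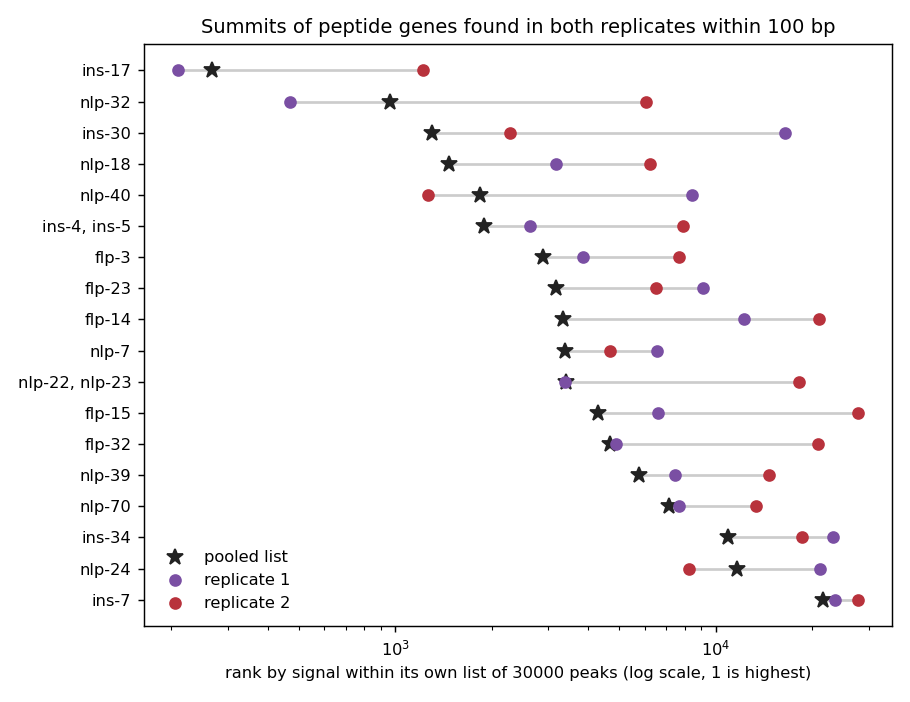
Rank by signal (x axis, log scale) in the pooled list (star) and in each replicate (circles) for the 18 summits, nearest to 20 members, that had a summit of both replicates within 100 bp; genes sharing a summit share a line. The pooled rank is better than both replicate ranks at most of these summits, and ins-17 is the gene with ranks of 3000 or better in all lists.

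The nearest summits of several well-studied members moved between lists. For flp-1, needed for normal sinusoidal movement, the nearest summit was at 740 bp in the pooled list, 581 bp in replicate 1 and 1555 bp in replicate 2, at ranks 13048, 13516 and 9432. For flp-18, which encodes ligands of the receptor NPR-1, it was at 63, 873 and -1710 bp, at ranks 22830, 19283 and 4153. A stronger summit lay farther upstream of flp-18, at -1697 bp in the pooled list, -1632 bp in replicate 1 and -1710 bp in replicate 2. Its signal was 59.3, 29.8 and 31.6 in these lists, at ranks 1665, 2328 and 4153, and it was the best ranked pooled summit within 2000 bp of any flp gene. For nlp-12, a cholecystokinin-like gene of movement control, it was at -799, -43 and -791 bp, at ranks 22955, 17257 and 20945. The positions of replicate 2 and of the pooled list nearly coincided at nlp-12 and those of the nearest summits in the 3 lists lay apart at flp-1 and flp-18.

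Among the insulin-like genes, ins-1 is known from learning and ins-6 and ins-7 from larval arrest, ageing and learning. For ins-1 the nearest pooled summit lay outside the limit, at 5265 bp, while replicate 1 had one at 21 bp (rank 25909) and replicate 2 at 157 bp (rank 28923). For ins-6, an agonist that promotes exit from dauer arrest, the summits were at -712, -727 and 653 bp in the pooled list, replicate 1 and replicate 2, at ranks 17488, 25291 and 22825. For ins-7, an agonist, the 3 lists placed the summit within 1 bp, at -241, -240 and -241 bp. Its ranks were low all the same, at 21702, 23499 and 27782. The ins-7 summit lay in a coding exon of the neighbouring gene htas-1.

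The epidermal antimicrobial gene nlp-29 had a pooled summit 127 bp upstream (rank 26342) and none within 2000 bp in either replicate. It belongs to a group of 6 genes on chromosome V, nlp-27 to nlp-31 and nlp-34, within 10244 bp. The pooled list had a summit near all 6, and each replicate near 4. The best of them were nlp-27 (rank 5272) and a summit ranked 5313 that nlp-31 and nlp-34 shared. In all, 35 members lay in 12 groups whose neighbouring 5′ ends were at most 5000 bp apart. The 3 genes ins-4, ins-5 and ins-6 on chromosome II, and the 4 genes nlp-45, nlp-22, nlp-23 and nlp-2 on chromosome X, had a summit near every gene in each of the 3 lists. The group of ins-21, ins-22 and ins-23 on chromosome III had none in the pooled list or replicate 2 and 1 in replicate 1. Because of such neighbours the 91 members stand on 87 summits, and the fourth shared summit was that of ins-19 and ins-31.

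The side of the nearest summit did not set the members apart. It was upstream for 42 of 91 members (46.2%), against 46.2% of all genes. The ins genes had 16 of 24 upstream in the pooled list (66.7%, interval 46.7 to 82.0), but 10 of 29 in replicate 1 and 11 of 27 in replicate 2. The flp genes had 6 of 16, 14 of 26 and 9 of 19 upstream in the pooled list, replicate 1 and replicate 2, and the nlp genes 20 of 51, 23 of 50 and 26 of 51. Upstream summits were thus the larger part of the ins genes in the pooled list and the smaller part in both replicates. The median distance from the 5′ end was 466 bp for members and 569 bp for all genes. The member's own 5′ end was the nearest protein-coding one for 77 of 91 (84.6%), against 79.4% of all genes, with 16 of 16 flp, 43 of 51 nlp and 18 of 24 ins genes.

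The share of nearest summits in coding exons was lowest for the flp genes in each of the 3 lists. Coding exons held the nearest summit of 1 of 16 flp genes in the pooled list, 3 of 26 in replicate 1 and 0 of 19 in replicate 2. For the ins genes they held 11 of 24, 14 of 29 and 11 of 27, and for the nlp genes 19 of 51, 15 of 50 and 17 of 51. Over all genes the coding shares were 40.6% in the pooled list and 39.0% in replicate 2. The 31 coding summits of the pooled list lay in the member's own coding sequence for 18, among them flp-3, nlp-32 and ins-4, and in that of another gene for 13. Own coding sequence held 13 of the 19 coding summits of nlp genes and 4 of the 11 of ins genes. The same split was not counted over all genes, so these numbers only describe the members. Introns held 6 of 16 flp summits in the pooled list, 7 of 26 in replicate 1 and 8 of 19 in replicate 2. For ins summits the counts were 1 of 24, 4 of 29 and 1 of 27, and for nlp summits 8 of 51, 9 of 50 and 7 of 51. Over all genes the intron shares were 22.6%, 22.9% and 23.0% in these lists. Positions between protein-coding genes held 36 of 91 member summits (39.6%), against 30.6% over all genes. In the pooled list they held 37.5% of flp, 37.3% of nlp and 45.8% of ins summits. The shares in the same order were 57.7%, 46.0% and 34.5% in replicate 1 and 52.6%, 45.1% and 40.7% in replicate 2. The ins share was thus the highest in the pooled list and the lowest in both replicates.

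These shares were set beside what lies around the genes. Of positions taken every 20 bp within 2000 bp of the 5′ ends, 13.7% were coding around the members and 31.1% around every 10th protein-coding gene. Positions between protein-coding genes were 52.7% around members and 34.3% around the sampled genes. By family the coding share of positions was 11.0% around flp, 13.9% around nlp and 15.6% around ins genes. Introns made up 33.0% of positions around flp, 28.1% around nlp and 14.3% around ins genes, and 28.2% around the sampled genes. The positions thus had more intron around flp than around ins genes, as the summits did. The pooled coding share of nearest summits was above that of the positions for ins (45.8%) and nlp genes (37.3%), and so it was over all genes, at 40.6%. For the flp genes it was 6.25%, or 1 of 16, with an interval of 1.11 to 28.3 that includes the share of positions. Median G+C content of the windows at nearest pooled summits was 39.6% for flp (quartiles 32.7 and 46.5), 42.6% for nlp (34.7 and 50.5) and 43.1% for ins genes (38.6 and 48.3), so the families overlapped widely. The lists are not independent and neighbouring members share summits, so the differences between families were not tested.

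**Figure D5:**
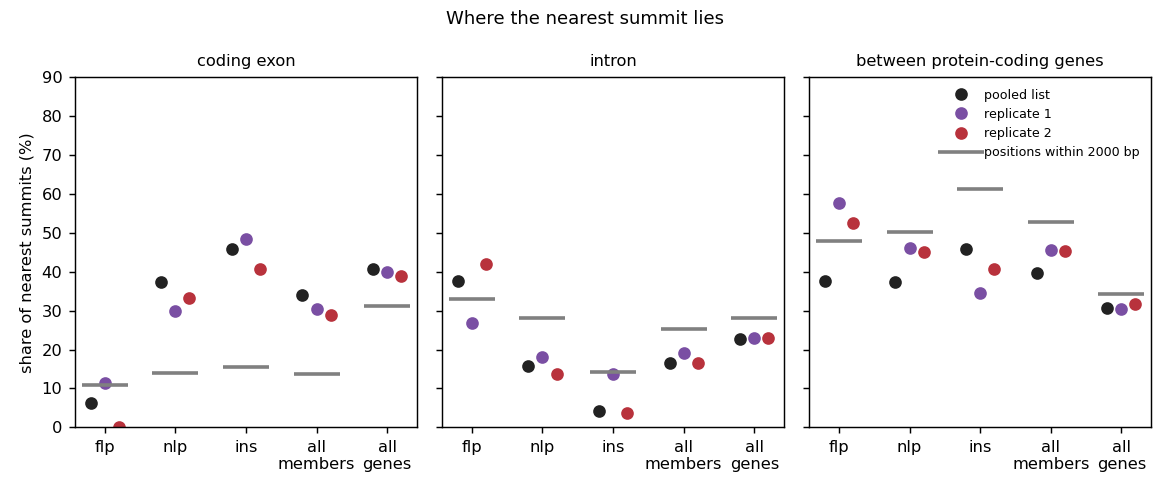
Share of nearest summits, in percent, that lie in coding exons, in introns and between protein-coding genes, by family, for all members and for all genes, in each list (circles), beside the share of positions within 2000 bp of the 5′ ends that are of that kind (grey bars; every 10th gene for all genes). The coding share of the ins and nlp genes lies above the grey bar in all 3 lists, and that of the flp genes is 6.25% in the pooled list, 11.5% in replicate 1 and 0.0% in replicate 2.

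Short RNA genes, which lay beside 3 of the 5 thresholded summits, were rarely beside the nearest summit of a member. The shares that follow are for nearest pooled summits and give no background for the thresholded ones. A tRNA, snRNA, snoRNA, miRNA precursor, rRNA or spliced-leader gene was within 250 bp for 2 of 91 members (2.20%), against 2.38% of all genes. One was flp-23, whose summit lay 286 bp upstream of the 5′ end and 29 bp from F22B7.t5, a gene for tRNA-Pro. The other was ins-7, 104 bp from the snRNA gene ZK1251.14. The flp-23 summit ranked 3175 in the pooled list, 9134 in replicate 1 and 6533 in replicate 2, and the ins-7 summit was among the weakest of the matched ones.

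Both strands of the 101-base windows were searched for 3 sequences of 6 letters, chosen because they were known to be frequent at the thresholded summits, and the members' shares were near those of other nearest summits. ACGCAG stood in 2 of the members' 87 windows (2.30%), at nlp-1 and nlp-36, in 3.34% of the windows of all genes, in 3.10% of all pooled windows and in 13.9% of the thresholded ones. AGAGCG stood in 2 members' windows, at flp-18 and nlp-19, in 2.94% of the windows of all genes, in 2.81% of all pooled windows and in 16.9% of the thresholded ones. GAACCC stood in 0 members' windows, in 2.99% of the windows of all genes, in 3.02% of all pooled windows and in 14.2% of the thresholded ones. Among the thresholded summits of members whose windows are shown above, AGAGCG stands in those of nlp-76 and ins-13, inside the short RNA gene in both. The window of the nlp-4 thresholded summit has no result of its own here. The median G+C content was 42.6% over the members' windows, 48.0% over the 18 matched ones, 41.6% over all pooled summits and 50.5% over the thresholded ones.

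Genes that act with these peptides were counted the same way. Of 14 genes for peptide processing and dense core vesicles, 11 had a pooled summit within 2000 bp (78.6%), against 69.6% of all genes. The best ranked were pghm-1, an enzyme of peptide amidation (rank 1683, at 1754 bp), and hid-1, a gene of dense core vesicle formation (rank 2243, at -205 bp). For hid-1 the ranks were 2992 in replicate 1 and 4611 in replicate 2, at -159 and -213 bp. Of 106 neuropeptide receptor genes 63 had one (59.4%, interval 49.9 to 68.3, below the 69.6% of all genes). In replicate 1 it was 67 (63.2%, 53.7 to 71.8), against 71.8% of all genes, and in replicate 2 it was 66 (62.3%, 52.8 to 70.9), against 70.2%, so the interval of replicate 1 ends at the share over all genes to 3 digits and that of replicate 2 includes it. The pooled summits were led by those of npr-9 (rank 550, at 1880 bp) and dmsr-1 (rank 1622, at -1134 bp), a receptor of FLP-13 peptides. Neither was a thresholded summit. The receptor gene frpr-10, named here after its values were seen, was the 1 of the 106 with a thresholded summit, against 1.59% of all genes. The nearest pooled summit of frpr-10 was another, weaker one, at -186 bp and rank 26656. Of 7 peptide genes with other names 6 had one, the best being daf-28, an insulin-like gene (rank 9570), and snet-1 (rank 17643).

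In the insulin pathway itself, 7 of 10 genes had a pooled summit within 2000 bp (interval 39.7 to 89.2%), against 69.6% of all genes, and 1 had a thresholded one, against 1.59% of all genes. It lay at -1452 bp from the 5′ end of pdk-1, the kinase that activates AKT downstream of DAF-2. The pdk-1 peak had a signal of 104 in the pooled list, 28.5 in replicate 1 and 71.2 in replicate 2, at ranks 154, 2921 and 104, so it was much better ranked in replicate 2. The second was akt-1 (rank 5339). The receptor gene daf-2, the kinase gene sgk-1 and the transcription factor gene daf-16, named here after their values were seen, had none within the limit in any list. The sgk-1 summit lay just beyond it, at -2030 bp in the pooled list (rank 3165), -2056 bp in replicate 1 (rank 10853) and -2054 bp in replicate 2 (rank 1743).

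Across chromosomes the members with a pooled summit ranged from 8 of 19 on chromosome IV (42.1%), where 62.9% of all genes had one, to 17 of 23 on chromosome V (73.9%), where 70.6% did. The genes altered in the strain were looked up as well. F57A8.1 had a pooled summit at -104 bp from its 5′ end (rank 3793). The replicates had theirs at -277 bp (rank 20353) and -137 bp (rank 3185). The unc-119 gene had none within 2000 bp, and its nearest pooled summit lay 8494 bp away. Since 69.6% of all genes had a pooled summit within 2000 bp, neither result can test the strain.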

How the data were processed

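ChIP-seq peak lists of 2 biological replicates were used in ce11 coordinates, per the labels. Per the deposited file descriptions, the authors called peaks on each replicate and on both pooled, against a control, and derived the thresholded list from these lists. The sources used here do not give the peak caller, aligner, filters or scaling, and read depth is unknown. The deposited signal is the authors' enrichment per peak, used to rank peaks within a list. The deposited −log10 q values were read only to describe peaks. Median signal was 34.9 in the pooled list, 19.0 in replicate 1 and 21.9 in replicate 2.

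Genes were those of Ensembl release 115 on WBcel235, the same sequence as ce11. Coordinates are 1-based. The 610 short RNA genes that Ensembl leaves unnamed took names from RefSeq by WormBase identifier (610 matched). Every 5′ end was assigned its nearest summit with Python 3.11.15, numpy 2.4.6 and pandas 2.3.3. The assignment was tested on simulated data with a made-up peak for each of a set of widely spaced genes. That check did not cover crowded or shared summits such as those of the real lists. Shares carry 95% Wilson intervals, and ranks run over lists of equal length. No test of significance was made, because 1 group has no contrast and the members and lists were chosen with earlier results of these data known.

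Named by rule were members with a thresholded summit, the 8 best ranked of each family, those ranked 3000 or better in all lists, those beside a short RNA gene, 7 well-known genes, 3 on each side of the limit, 2 of each pathway list, F57A8.1 and unc-119. Members named for other reasons were chosen after their values were seen. Protein sequences were not used here.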

Additional observations from a re-analysis of the deposited data

How the results depend on the processing

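With a limit of 500 bp in place of 2000 bp, the pooled list had a summit near 49 members, of which 7 were flp, 28 nlp and 14 ins genes. At that limit both replicates had one near 23 members, and 25 members had it upstream. With 1000 bp both replicates had one near 48. The 15000 pooled peaks of highest signal reached 33 nlp genes. Each replicate alone gave 97 to 105 members, and the flp count ranged from 19 without replicate 1 to 26 without replicate 2. Matches in both replicates numbered 10 within 50 bp and 34 within 250 bp, and summits beside a short RNA gene numbered 1 within 100 bp and 7 with piRNA and other non-coding RNA genes added. Taking the summit of highest signal within 2000 bp, the median rank was 9702 for all members, 8605 for flp, 9612 for nlp and 11518 for ins genes. It was 14955.5 for ins genes within 1000 bp. With 1 replicate left out in turn, the median ranged from 14238 to 16949.5 for flp, from 12716.5 to 14581 for nlp and from 18062 to 18427 for ins genes. The count of thresholded summits was 1 when it had to be the nearest pooled summit, an alternative chosen after seeing the data, and 4 to 5 with 1 replicate's own highest peaks. Values over all genes were not counted for both replicates or upstream summits at the shorter limits. Nor were they counted for the 15000 peaks, the median of the highest signal, the other match limits or the other short RNA rules. These values describe the members only. The counts near a gene depend on the distance chosen by construction, and the cause of the differences between lists was not tested. Depth is unknown, so what it limits cannot be given. No paired analysis was possible because the 2 samples form 1 group and no result comes from a test.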
